A study of Sus scrofa with 6 samples.

Results

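The nuclear-encoded subunits of the respiratory chain and of ATP synthase were followed in the longissimus dorsi (LD), a back muscle, of 6 castrated male Laiwu pigs. Laiwu is a Chinese breed known for fat within the muscle, called intramuscular fat (IMF). The labels put 3 pigs with a high IMF content in the S-H group (LW63, LW70 and LW119) and 3 with a low IMF content in the S-L group (LW82, LW88 and LW90). The study calls these contents extremely high and extremely low. No treatment is stated, the study chose the pigs from a larger set by their IMF content, and their age is not given in the sources used here. The design asks which genes differ in muscle RNA between the groups, and each pig gave 1 library and was 1 replicate. Members were chosen by symbol alone: a symbol of the NDUFA, NDUFB, NDUFC, NDUFS or NDUFV series, SDHA to SDHD, UQCR, COX4 to COX8 or ATP5, at a place outside the mitochondrial chromosome, and a mean level over the pigs that reached 0.1 FPKM. All 64 genes with such a symbol reached this level, of 31908 annotated genes in the deposited table. There were 28 members in complex I, 3 in complex II, 5 in complex III, 15 in complex IV and 13 in complex V. NDUFA4 and its relative NDUFA4L2, named for complex I, were placed in complex IV, where the NDUFA4 protein is known to sit.

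The respiratory chain lies in the inner membrane of the mitochondrion. Complexes I and II take electrons from NADH and succinate, complex III passes them to cytochrome c, complex IV hands them to oxygen, and complex V, the ATP synthase, uses the proton gradient that complexes I, III and IV build. Most subunits are encoded in the nucleus and imported, a few are encoded by mitochondrial DNA, and oxidative (slow) muscle fibres hold more of these complexes than glycolytic (fast) fibres do. Several subunits of complex IV exist as a pair of isoforms, of which 1 is typical of heart and skeletal muscle or of tissues at low oxygen.

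FPKM counts fragments per kilobase of transcript, scaled to the fragments of the library, so levels of different genes are compared here per length. The values were summed over all transcripts of a gene, 201 transcripts for the 64 members. The library totals, after the step given under the processing, ranged from 638536 FPKM in LW119 to 846661 FPKM in LW82. No read counts were used, so the depth behind a value is unknown, and the error given is the spread between pigs. FPKM is uncertain for transcripts not much longer than a sequenced fragment, as many of these subunits have. Bulk muscle RNA also cannot tell fewer cells of a type from less RNA per cell. The tissue label was met by the 3 skeletal muscle genes tested, of 5 listed (TTN and MB were not among them). CKM, the muscle creatine kinase, had between 1985 and 3939 FPKM in the 6 pigs. ACTA1 had between 447.5 and 1731 FPKM and DES between 1431 and 4830 FPKM.

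The members were among the more abundant transcripts of the muscle. The median of their mean levels was 96.3 FPKM, against 3.83 FPKM for the 11029 tested genes, and 31 members (48.4%) had a mean of at least 100 FPKM, against 2.8% of the tested genes. A mean of at least 10 FPKM was reached by 60 members. The 4 below it were COX4I1, COX6B2, NDUFA4L2 and NDUFA13. NDUFA13, and below also NDUFA5, NDUFA6, NDUFB10 and COX7A2L, are named because of values already seen. The members lay on 18 chromosomes, with 11 on chromosome 2, 8 on chromosome 6 and 3 on X. The highest mean was that of NDUFA4 in complex IV, at 819.2 FPKM, and the lowest that of COX6B2, at 0.173 FPKM.

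**Figure D1:**
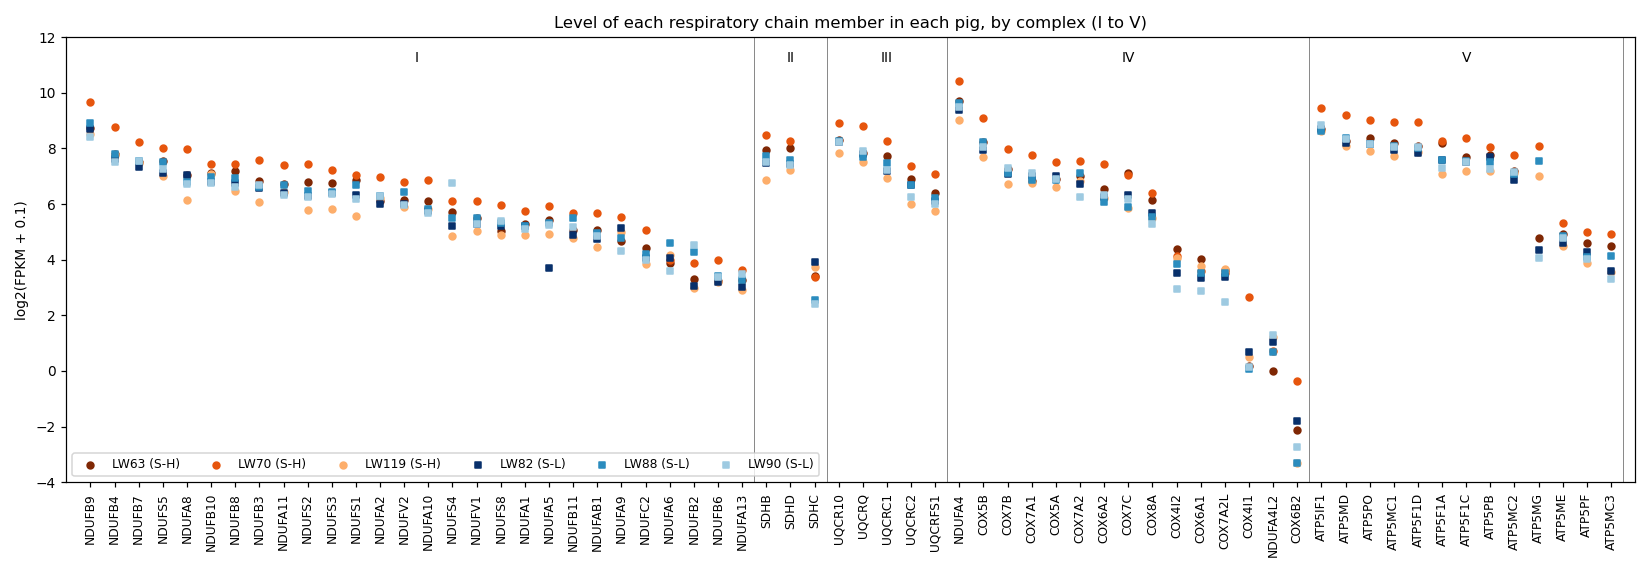
Level of each of the 64 members in each pig, as log2(FPKM + 0.1) on the vertical axis, with the members on the horizontal axis ordered by complex and by mean level, circles for S-H pigs and squares for S-L pigs. LW70 is the highest point for 55 members, and the S-L pigs lie between LW70 and LW119 for most of them.

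No member passed the test between S-H and S-L. The thresholds, in limma on log2(FPKM + 0.1), were an unadjusted p below 0.01 and a log2 fold change of 1 or more in either direction. Of the 64 members 0 passed, where 149 of the 11029 tested genes (1.35%) did, 128 of them higher and 21 lower in S-H. At an unadjusted p below 0.05, without a limit on size, 1 member (COX4I2) was counted, against 8.12% of the tested genes. Without LW119 the same count was 15 members, beside 951 of the 11029 tested genes. In FPKM the S-H pigs were all above the S-L pigs for 3 members, namely NDUFB10, COX4I2 and COX6A1. These are 4.69% of the members, against 13.1% of the tested genes. The S-L pigs were all above the S-H pigs for 0 members, against 1.6%. With median-ratio size factors (1.148 in LW119 and 0.9715 in LW88) LW119 fell below LW88 for NDUFB10 and COX4I2, so their groups overlapped. Adjusted p values of the members (limma, Benjamini-Hochberg over all tested genes) ran from 0.57 to 0.994. Over all tested genes the lowest adjusted p was 0.0583, and 0 genes had an adjusted p below 0.05.

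The log2 fold changes of the members were small beside their errors. Their median was 0.26, beside 0.21 for all tested genes, and the median standard error of a member was 0.31. A higher mean in S-H was found for 58 members (90.6%), against 73.8% of the tested genes, and 42 members were above the median of all tested genes. Between 0 and 0.5 lay 46 members, and 1 (ATP5MG) reached 1. By complex, the median log2 fold change was 0.21 for complex I (-0.01 with median-ratio size factors), 0.35 for complex II (0.14), 0.24 for complex III (0.03), 0.48 for complex IV (0.27) and 0.29 for complex V (0.08). These medians rested on the scaling of the libraries and on single pigs. With the size factors, which set the median of all tested genes to 0.00, the median of the members was 0.05 and 39 of them were higher in S-H, and with TPM it was 0.40, beside 0.34 for all tested genes. Without LW70 it was -0.05 with 27 higher, and from complex I to complex V it was -0.07, 0.14, -0.07, 0.05 and 0.00, and without LW119 the median of the members was 0.55 with 61 higher.

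**Figure D2:**
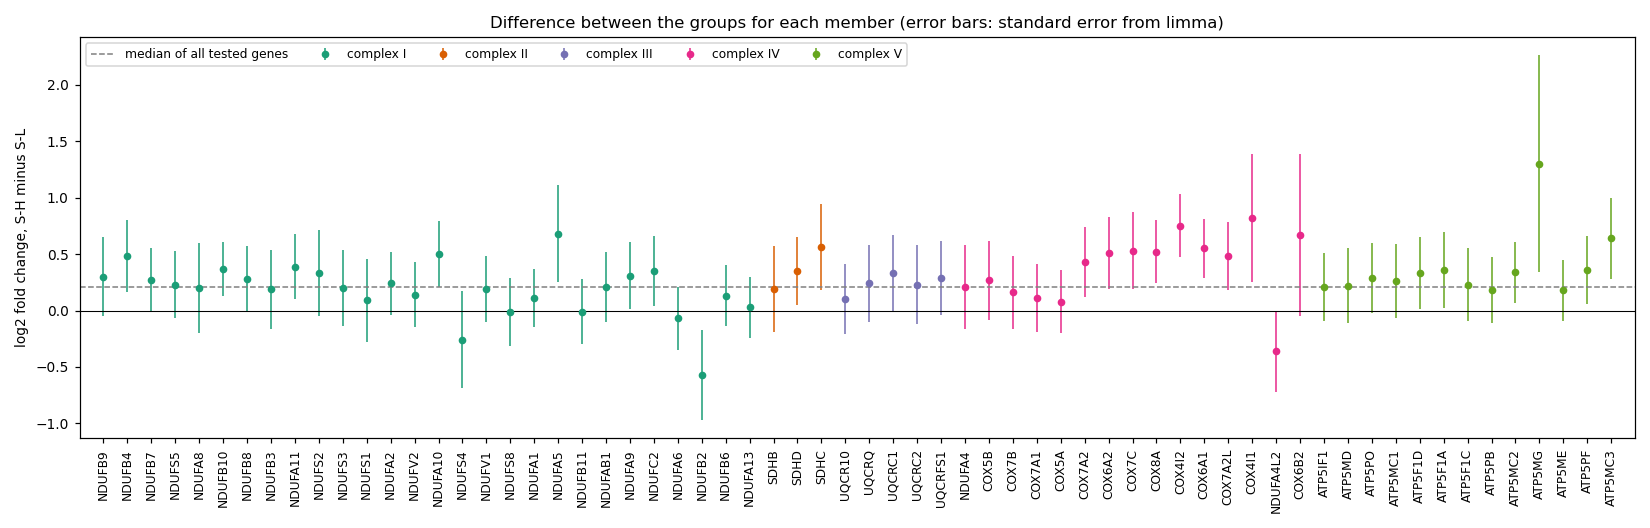
Log2 fold change (S-H minus S-L, on log2(FPKM + 0.1)) of each member, with the standard error from limma as the bar, coloured by complex, and the median of all tested genes (0.21) as a broken line. Most points lie between 0 and 0.5, and the bars are about as long as the distance from 0.

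The members differed widely between 2 pigs of the S-H group, a pattern described here without a test because these pigs were singled out after their values were seen. LW70, an S-H pig, had the highest value of the 6 pigs for 55 of the 64 members (85.9%), against 14.5% of the tested genes. LW119, also an S-H pig, had the lowest value for 40 members (62.5%), against 8.38% of the tested genes. LW90 was lowest for 15 members, beside 40.9% of the tested genes. LW70 was the highest pig for between 51 and 56 members whichever level was used (TPM, size factors, annotated transcripts only or the leading transcript). The place of LW119 depended on the scaling: it was lowest for 50 members with size factors and for 8 members with TPM, which sets every library to the same total and raised LW119 most, because its total was the lowest.

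Against each gene's own mean over the 6 pigs, the members deviated by a median of 0.66 on the log2 scale in LW70 and of -0.39 in LW119. The other S-H pig, LW63, was at 0.07. The S-L pigs were closer together, at -0.18 in LW82, -0.04 in LW88 and -0.16 in LW90, so in FPKM the S-L pigs lay within the range of the S-H pigs. As given above, LW119 was the lowest pig for few members with TPM, so the low end of this range rests on the scaling. The ratios and sums below are in FPKM too. Over all tested genes the same medians were -0.06 in LW70 and 0.18 in LW119, the opposite order to that of the members. The median fold of S-H over S-L was 1.2 for the members. It is a fold between groups of 3 pigs and cannot be set against a ratio of 2 pigs picked as extremes. The ratio of LW70 to LW119 had a median of 2.09 over the 63 members with a value in both, with quartiles of 1.81 and 2.38. Over the tested genes its median was 0.828. This ratio was at least 1.5 for 55 members and below 1 for 5, namely NDUFA6, SDHC, COX6A1, COX7A2L and NDUFA4L2. Its median was 1.99 in complex I, 2.04 in complex II, 2.54 in complex III, 1.95 in complex IV and 2.15 in complex V. Summed over the members, LW70 had 13865 FPKM and LW119 had 6375 FPKM, with LW63 at 8635 FPKM and the S-L pigs between 7296 and 8125 FPKM.

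**Figure D3:**
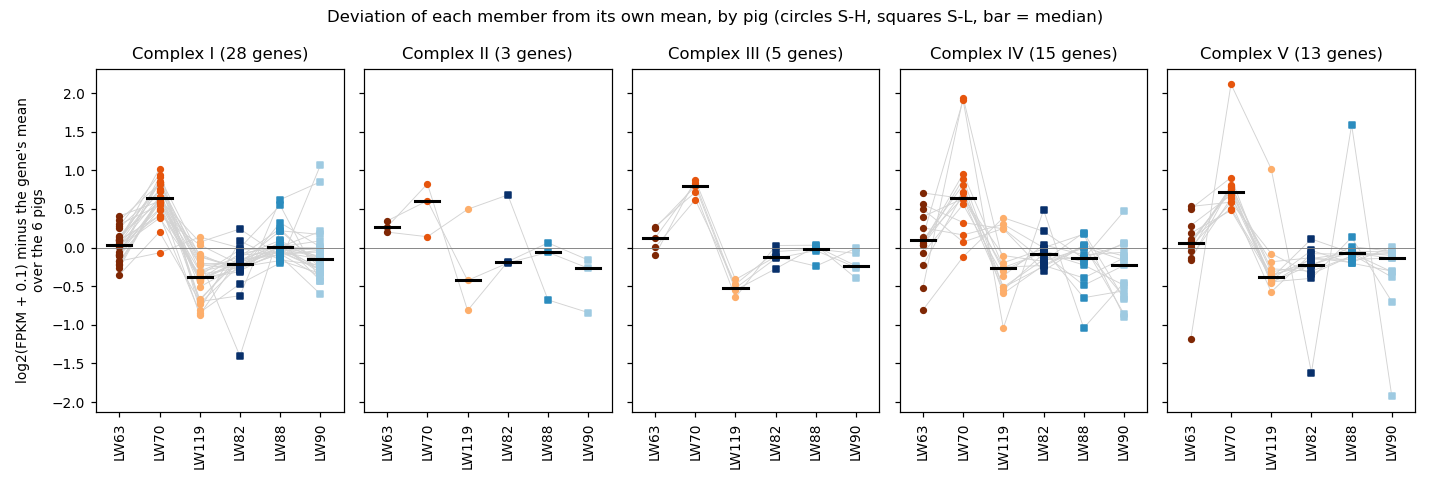
Deviation of each member from its own mean over the 6 pigs, in log2(FPKM + 0.1), for each pig and complex, with thin lines joining the values of a gene and a black bar for the median. In every complex LW70 has the highest median and LW119 the lowest, and the S-L pigs (squares) lie between them. The place of LW119 depends on the FPKM scaling.

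Complex I is the entry point for electrons from NADH. Its members had means between 9.66 and 474.0 FPKM, 25 of 28 were highest in LW70 and 18 were lowest in LW119. The most abundant were 3 accessory subunits of the membrane arm, NDUFB9, NDUFB4 and NDUFB7. NDUFB9 (chromosome 4, 15075436 to 15113351) had 422.7, 816.2 and 367.2 FPKM in LW63, LW70 and LW119, and 418.0, 483.3 and 336.7 FPKM in LW82, LW88 and LW90. Its 2 other S-H pigs lay within the range of the S-L pigs, so the groups overlapped, and the log2 fold change was 0.30 with a standard error of 0.35 (limma, adjusted p = 0.809). The S-H mean of NDUFB4 was 293.0 ± 128.7 FPKM and its S-L mean 199.2 ± 20.6 FPKM (SD, n = 3), and NDUFB7 had 220.0 ± 69 and 177.7 ± 14.3 FPKM. For both the SD was larger in S-H, where LW70 stood apart at 441.6 and 299.7 FPKM.

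Of the catalytic core, NDUFV1 binds the FMN that takes up the electrons of NADH, and NDUFS1 carries iron-sulfur clusters that pass them on. NDUFS1 had 115.9, 132.2 and 47.7 FPKM in the S-H pigs and 80.6, 103.4 and 72.5 FPKM in the S-L pigs. LW119 was the lowest pig and LW70 and LW63 the highest, so that both ends of the range were S-H pigs. NDUFV1 was between 33 and 68.9 FPKM in S-H and between 38.6 and 45.7 FPKM in S-L, with the same pigs at the ends, LW119 and LW70. The log2 fold changes were 0.09 (SE 0.37) for NDUFS1 and 0.19 (SE 0.29) for NDUFV1, both smaller than their errors.

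The subunits NDUFS4 and NDUFB2 were the complex I members of lowest log2 fold change, at -0.26 (SE 0.43) and -0.57 (SE 0.40), with adjusted p values in limma of 0.873 and 0.695. Both depended on how transcripts were combined and on single pigs. NDUFS4 was at 0.41 with the leading transcript alone, 0.20 without LW90 and 0.09 without LW119. NDUFB2 was at -3.68 with annotated transcripts only (limma, unadjusted p = 0.0211) and at -5.13 with the leading transcript alone (limma, unadjusted p = 0.0412). It was at -1.02 without LW82 and at -0.28 without LW90. NDUFS4, a subunit of the peripheral arm needed for a stable complex I, had 52.9, 69 and 28.9 FPKM in S-H and 37.3, 45.1 and 108.5 FPKM in S-L. The high value of LW90 came from transcripts that had little in the other pigs: NDUFS4-202 had 49.6 FPKM in LW90 and at most 4.62 FPKM elsewhere, and NDUFS4-201 had 37 FPKM in LW90 and at most 1.42 FPKM elsewhere. The leading transcript of the other pigs, NDUFS4-203, had its lowest value in LW90, at 21.9 FPKM. NDUFB2, an accessory subunit of the membrane arm, had 9.86, 14.5 and 7.74 FPKM in S-H and 8.16, 19.5 and 22.9 FPKM in S-L. In LW88 and LW90 its level was carried by NDUFB2-202, at 19 and 22.4 FPKM, which was listed at 0 in the other 4 pigs. In those pigs an assembled transcript that ends near the same places carried it, with 7.58 to 14.1 FPKM. NDUFA5, looked at after its values were seen, showed the same kind of gap: its leading transcript NDUFA5-201 had 0.33 FPKM in LW82 and between 21.6 and 44.8 FPKM in the other pigs, and the gene had 12.8 FPKM in LW82 against 30.4 to 60.3 FPKM elsewhere. Whether these are differences in transcript use or in how reads were assigned to overlapping transcripts was not tested.

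**Figure D4:**
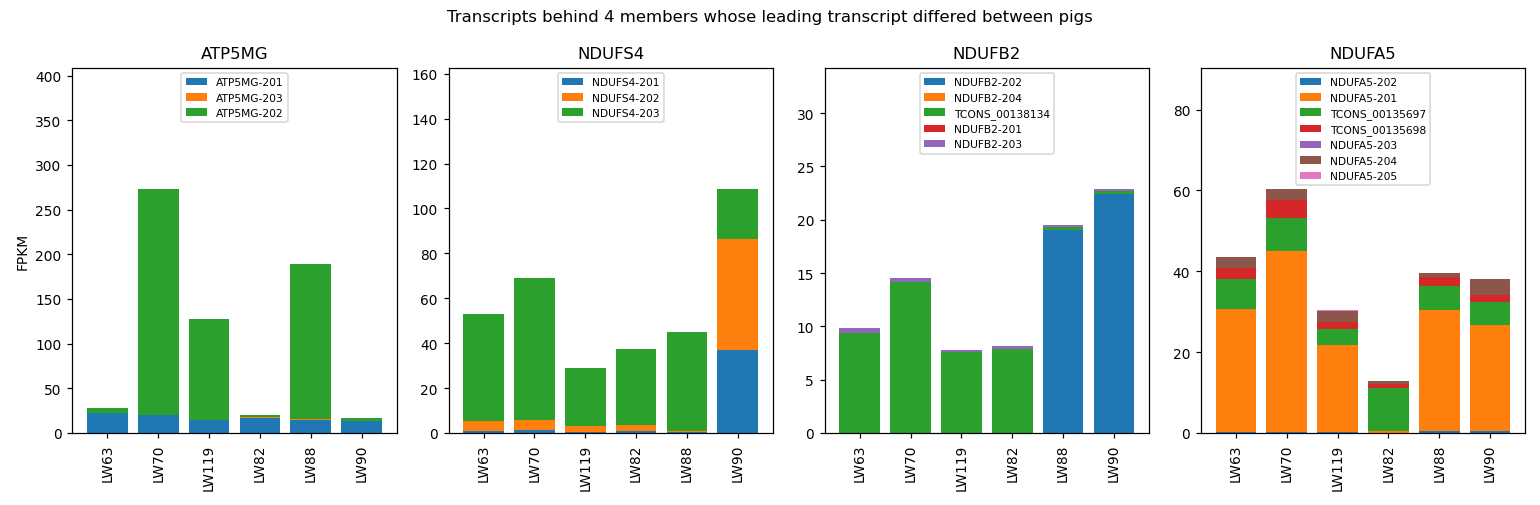
FPKM of each transcript of ATP5MG, NDUFS4, NDUFB2 and NDUFA5 in each pig, stacked to the level of the gene. ATP5MG-202 is near 0 in LW63, LW82 and LW90, the added transcripts of NDUFS4 appear in LW90, NDUFB2-202 appears in LW88 and LW90, and NDUFA5-201 is near 0 in LW82.

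Complex II, succinate dehydrogenase, is shared with the citrate cycle and is encoded wholly in the nucleus. SDHB, the iron-sulfur subunit, had 246.0, 362.0 and 116.1 FPKM in S-H and 180.2, 213.1 and 182.7 FPKM in S-L. SDHD, a membrane anchor, had 256.1, 306.8 and 150.2 FPKM in S-H and 175.5, 193.2 and 167.5 FPKM in S-L. For both genes LW70 and LW63 were above every S-L pig and LW119 was below every S-L pig. The log2 fold changes were 0.19 (SE 0.38) for SDHB and 0.35 (SE 0.30) for SDHD. SDHC (chromosome 4, 89130355 to 89169121), the other anchor, was weaker and followed another order, with 10.7, 10.3 and 13.2 FPKM in S-H and 15, 5.79 and 5.16 FPKM in S-L. LW82 was its highest pig, and the groups overlapped only because of LW82. The table lists 13 transcripts for it, some at 0 in every pig. SDHC-207 led in LW63, LW119 and LW82 and assembled transcripts led in the other 3 pigs. Its log2 fold change was 0.56 (SE 0.38; limma, adjusted p = 0.686), and without LW82 it was 1.04 and passed the thresholds (unadjusted p = 0.00515 in limma).

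Complex III, the cytochrome bc1 complex, gave the most even picture: all 5 members were highest in LW70 and lowest in LW119. UQCR10 and UQCRQ, small accessory subunits, and UQCRC1, a core subunit, had means of 323.6, 254.8 and 186.6 FPKM over the 6 pigs. UQCR10 had 315.8, 484.3 and 226.6 FPKM in S-H and 304.3, 311.1 and 299.2 FPKM in S-L. The 3 S-L pigs differed little, at 304.9 ± 6 FPKM (SD, n = 3), while the S-H pigs, at 342.3 ± 130.9 FPKM, spread to both sides of them. UQCRFS1, the Rieske iron-sulfur protein, had 83.8, 136.9 and 53.4 FPKM in S-H and 69.8, 74.8 and 64.2 FPKM in S-L. Here too the S-L pigs lay between LW119 and LW63. The log2 fold changes of UQCR10, UQCRQ, UQCRC1 and UQCRFS1 were 0.10, 0.24, 0.33 and 0.29, with standard errors of 0.31 to 0.34.

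Complex IV, cytochrome c oxidase, held the member with the highest level and 2 of the 3 members without overlap between the groups in FPKM. NDUFA4 (chromosome 9, 80637087 to 80644326) had 834.2, 1374 and 518.3 FPKM in S-H and 667.5, 795.9 and 724.8 FPKM in S-L. COX5B, which binds zinc, had 301.0, 546.1 and 206.5 FPKM in S-H and 249.4, 297.3 and 263.0 FPKM in S-L, and COX7B, a small membrane subunit on X, had 155.3, 251.7 and 106.8 FPKM in S-H and 136.7, 139.2 and 156.7 FPKM in S-L. In all 3 genes LW70 was highest and LW119 lowest. Their log2 fold changes were 0.21, 0.27 and 0.16, with standard errors of 0.37, 0.35 and 0.32.

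COX4I2 (chromosome 17, 35341876 to 35346007) is the isoform of subunit 4 known from lung and from cells at low oxygen. It had 20.6, 17.5 and 16.6 FPKM in S-H and 11.3, 14.3 and 7.68 FPKM in S-L. In FPKM the groups did not overlap, and LW63, not LW70, was the highest pig. The log2 fold change was 0.75 with a standard error of 0.28 (limma, unadjusted p = 0.0211, adjusted p = 0.57), so it did not pass. With size factors it was 0.54 (limma, unadjusted p = 0.0511), and LW119 fell below LW88, so the groups overlapped. COX6A1, the isoform of subunit 6A found in most tissues, had 16.1, 12 and 13.6 FPKM in S-H and 10.1, 11.3 and 7.3 FPKM in S-L. For COX6A1 too the groups did not overlap in FPKM, although LW70 was close to LW88. Its log2 fold change was 0.55 with a standard error of 0.26 (limma, adjusted p = 0.618). NDUFB10 of complex I was the other member without overlap in FPKM. It averaged 149.2 ± 21.7 FPKM over the S-H pigs and 115.2 ± 9.81 FPKM over the S-L pigs (SD, n = 3).

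The muscle isoforms of subunits 6A and 7A, COX6A2 and COX7A1, had LW70 as the highest pig, as most members did. COX6A2 had 92.1, 171.9 and 74.4 FPKM in S-H and 75.5, 67.5 and 80.8 FPKM in S-L, and COX7A1 had 113.1, 215.7 and 107.7 FPKM in S-H and 128.9, 116.6 and 138.3 FPKM in S-L. COX7A2, the isoform found in most tissues, had 129.3, 189.0 and 112.4 FPKM in S-H and 106.7, 138.2 and 76.4 FPKM in S-L. LW70 stood apart from the other pigs in all 3. The level of COX6A2 rests on 7 assembled transcripts, since its annotated transcript, COX6A2-201, had at most 0.0634 FPKM in any pig. COX8A, the isoform of subunit 8 found in most tissues, averaged 66.9 ± 19.8 FPKM in S-H and 45.5 ± 6.6 in S-L (SD, n = 3), with a log2 fold change of 0.52 (SE 0.28; limma, adjusted p = 0.634), and LW119 (45.2 FPKM) lay among the S-L pigs.

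The share of the muscle or low-oxygen isoform within its family does not depend on the scaling of the library. COX6A2 made up 85.1%, 93.5% and 84.6% of COX6A1 and COX6A2 together in LW63, LW70 and LW119, and 88.2%, 85.6% and 91.7% in LW82, LW88 and LW90, with its level taken almost wholly from assembled transcripts. COX7A1 made up 49.6% ± 3.37 of its pair in S-H and 55% ± 9.34 in S-L (SD, n = 3), COX4I2 87.3% ± 11.6 and 90.2% ± 3.18, and NDUFA4L2, a relative of NDUFA4 known to be induced at low oxygen, 0.215% ± 0.182 and 0.267% ± 0.0701. The groups overlapped in all 4 families, and exact two-sided permutation tests gave p = 0.80 for COX6A2, 0.50 for COX7A1, 0.90 for COX4I2 and 0.80 for NDUFA4L2, each 0.90 after adjustment over the 4 families. With 3 pigs against 3 the smallest p of this test is 0.10, so a p below 0.05 could not be reached.

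The share of COX4I2 rests on a low value of its partner. COX4I1 (chromosome 6, 3131019 to 3240221), the isoform of subunit 4 found in most tissues, had 1.04, 6.16 and 1.32 FPKM in S-H and 1.51, 0.94 and 1.01 FPKM in S-L, far below the other common subunits of complex IV. Its first transcript (3131019 to 3137530) lies within a transcript labelled IRF8, a transcription factor of blood cells, which runs from 3041645 to 3137549 on the same chromosome and had 29, 45.3 and 29.5 FPKM in S-H and 35.1, 30.7 and 33.3 FPKM in S-L. How reads over this overlap were divided between the genes was not tested, so neither the level of COX4I1 nor the share of COX4I2 can be read as the balance of these isoforms. COX6B2, the isoform of subunit 6B known from testis, was at 0.127, 0.672 and 0 FPKM in S-H and at 0.188, 0 and 0.0502 FPKM in S-L. NDUFA4L2 was at 0.911 to 2.21 FPKM in S-H and 1.5 to 2.35 FPKM in S-L, with a log2 fold change of -0.36 (SE 0.36), and LW63 and not LW119 was its lowest pig.

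Complex V makes ATP from the proton gradient. All 13 members were highest in LW70, 8 were lowest in LW119, and 13 had a higher mean in S-H. ATP5IF1, which is not a subunit but the inhibitor that stops the enzyme from running backwards, was the most abundant, with 410.9, 702.0 and 397.7 FPKM in S-H and 412.5, 395.2 and 454.7 FPKM in S-L. ATP5MD, a small membrane subunit, and ATP5PO, part of the stalk that holds the catalytic head, had means of 353.5 and 325.5 FPKM over the 6 pigs. ATP5PO was 284.2, 283.6 and 286.6 FPKM in the S-L pigs and 335.5, 521.0 and 242.4 FPKM in the S-H pigs. The S-L pigs were nearly equal and LW119 was below all of them. The log2 fold changes of ATP5IF1, ATP5MD and ATP5PO were 0.21, 0.22 and 0.29, with standard errors of 0.30, 0.33 and 0.31.

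ATP5F1A, the alpha subunit of the catalytic head, had 294.3, 305.8 and 136.6 FPKM in S-H and 192.6, 191.7 and 156.2 FPKM in S-L, with LW63 close to LW70 and LW119 lowest. The genes ATP5MC1, ATP5MC2 and ATP5MC3 encode the same c subunit of the membrane rotor with different import signals. ATP5MC1 averaged 332.0 ± 144.8 FPKM in S-H and 261.4 ± 14.9 in S-L, ATP5MC2 168.5 ± 44.6 and 130.8 ± 13.4, and ATP5MC3 21.4 ± 9.2 and 13.1 ± 3.95 (SD, n = 3). ATP5MC3 was thus the weakest of the 3 genes in both groups. It had 22.6, 30 and 11.7 FPKM in S-H and 12.1, 17.5 and 9.78 FPKM in S-L, a log2 fold change of 0.64 (SE 0.36; limma, adjusted p = 0.647). Without LW119 its log2 fold change was 1.03 and passed the thresholds (unadjusted p = 0.00757 in limma).

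ATP5MG (chromosome 9, 45661106 to 45720783), a subunit that helps ATP synthase form dimers, had the largest log2 fold change of the members, 1.30, with a standard error of 0.96 (limma, adjusted p = 0.705). It had 27.7, 272.7 and 127.6 FPKM in S-H and 20.4, 189.4 and 16.5 FPKM in S-L. High and low pigs were found in both groups. The difference came from ATP5MG-202 (45712624 to 45714998), a transcript at 252.0, 113.3 and 173.8 FPKM in LW70, LW119 and LW88 and at 5.41, 2.9 and 2.87 FPKM in LW63, LW82 and LW90. Its main alternative, ATP5MG-201, was between 13.6 and 22.1 FPKM in all 6 pigs. LW88 of the S-L group thus stood with LW70 and LW119.

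A further 12 nuclear genes of the chain carry no symbol in the deposited table, so the rule did not take them; 6 were found by gene ID and 6 by position in the RefSeq gene table. They were tested in a fit on the 16333 annotated genes with a mean of at least 0.1 FPKM. In it 204 genes (1.25%) passed, and 0 of these 12 did. At an unadjusted p below 0.05, 1 was counted, NDUFA7. In that fit 1217 of the 16333 genes reached this p, which is also the background for the lists below. Of the 12, 9 were highest in LW70 and 7 lowest in LW119. SDHA, the catalytic subunit of complex II, had 74.2, 89.7 and 27.7 FPKM in S-H and 42.6, 52.7 and 37 FPKM in S-L. ATP5F1B, the beta subunit of ATP synthase, had 973.8, 964.2 and 410.9 FPKM in S-H and 625.8, 718.8 and 541.6 FPKM in S-L. In both LW63 and LW70 were above the S-L pigs and LW119 below them, the order seen in SDHB and SDHD. UQCR11, a small subunit of complex III, was at 13.5 FPKM in LW90, at 0.0166 FPKM in LW63 and listed at 0 in the other pigs.

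Other genes of mitochondrial energy supply, tested in the same fit, showed the pattern of LW70 and LW119 to different degrees. All 5 genes of the electron carriers (CYC1, CYCS, ETFA, ETFB and ETFDH) were highest in LW70 and 3 were lowest in LW119. CYC1, cytochrome c1 of complex III, had 252.9, 424.4 and 140.5 FPKM in S-H and 203.0, 214.8 and 169.1 FPKM in S-L. Of 12 citrate cycle genes, 10 were highest in LW70 and 8 lowest in LW119, with a median deviation of 0.47 in LW70 and -0.34 in LW119, and 0 passed, with 0 at an unadjusted p below 0.05. Their median log2 fold change was 0.14, with 11 of 12 higher in S-H, and only 2 of 12 with size factors. Of 37 assembly factors measured, 16 were highest in LW70 and 5 lowest in LW119. Higher in S-H were 36 of the 37, and 12 of the 23 that were fitted with size factors. At an unadjusted p below 0.05 in limma 4 were counted. Of these FOXRED1 did not overlap between the groups (log2 fold change 0.90; limma, unadjusted p = 0.00607) but fell short of the size threshold. Only 1 assembly factor passed. It was LYRM7, which matures the Rieske protein, at 3.43, 5.37 and 3.69 FPKM in S-H and 1, 0.409 and 2.23 FPKM in S-L (log2 fold change 1.94, SE 0.51; limma, adjusted p = 0.628), a call that was lost without LW70 and with size factors.

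The regulators of mitochondrial biogenesis did not share the order of the members. Over 13 of them the median deviation was -0.00 in LW70 and -0.01 in LW119, and 1 was highest in LW70. PPARGC1A, the coactivator known as a driver of mitochondrial gene expression in muscle, was the gene of this list that passed, and it was lower in S-H. It had 10, 22.4 and 15.1 FPKM in S-H and 25.5, 76 and 43.7 FPKM in S-L, so the groups did not overlap (log2 fold change -1.54, SE 0.42; limma, adjusted p = 0.639). The call was lost without LW63, LW88 or LW90 and was kept with TPM and with size factors. At an unadjusted p below 0.05 in limma, 2 genes of the list were counted. The other was PPARGC1B, higher in S-H without overlap and highest in LW70 (log2 fold change 0.74, SE 0.31, limma, unadjusted p = 0.0416, adjusted p = 0.663). Levels of PPARGC1B were 2.05 to 2.71 FPKM among S-H pigs and 1.01 to 1.88 FPKM among S-L pigs. Of the 13 regulators, 7 were higher in S-H, and 2 with size factors.

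The 13 protein genes of mitochondrial DNA, which supply the remaining subunits, had a median log2 fold change of -0.27, with 3 higher in S-H and 0 that passed (0 also at an unadjusted p below 0.05 in limma). This median was -0.14 with TPM (5 higher), -0.49 with size factors (1 higher), -0.41 without LW70 (1 higher) and -0.04 without LW119 (5 higher). COX1, the catalytic core of complex IV, had 17344, 26622 and 11107 FPKM in S-H and 17631, 16293 and 14629 FPKM in S-L. LW70 was again highest and LW119 lowest. Over the list, 4 genes were highest in LW70 and 7 lowest in LW119, and the median deviation was 0.15 in LW70 and -0.50 in LW119. ND4 had 171.1 FPKM in LW70 and below 0.1 FPKM in the other pigs, and ATP8, COX3 and ND4L had at most 1.2 FPKM in any pig, so the levels within this list differed widely from gene to gene.

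**Figure D5:**
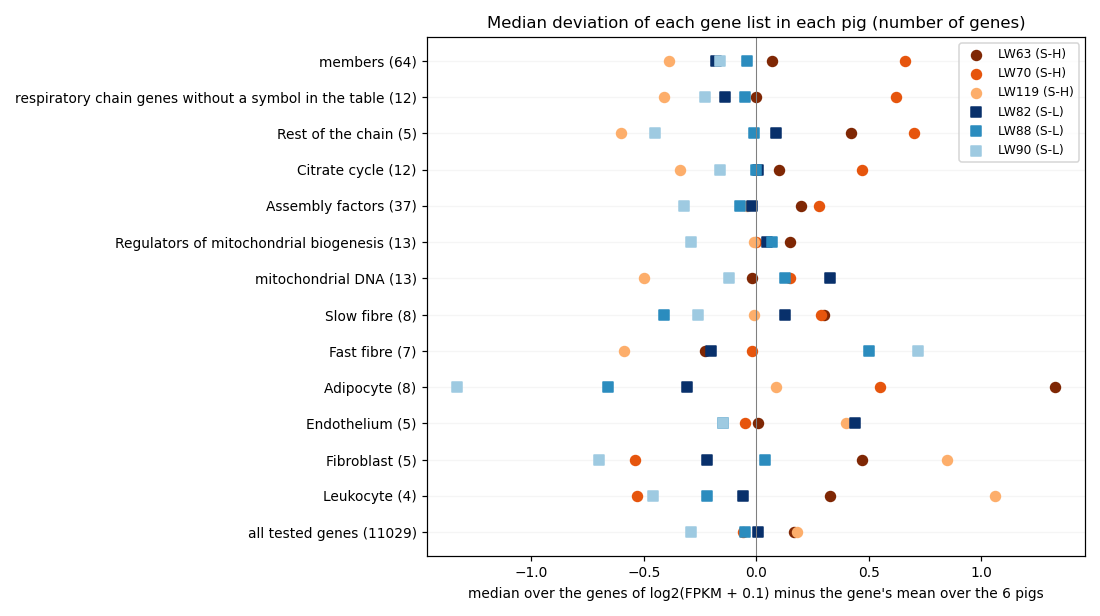
Median deviation from the gene's mean, in log2(FPKM + 0.1), for each list drawn (with its number of genes) and pig, circles for S-H and squares for S-L. The skeletal muscle list is not drawn. The members, the genes without a symbol, the rest of the chain and the citrate cycle have LW70 on the right and LW119 on the left, while the leukocyte and fibroblast lists have LW119 furthest to the right and LW70 at -0.53 and -0.54, with LW90 at -0.70 further left in the fibroblast list.

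Markers of fibre types and of other cells moved as follows in the same libraries, and their part in the values above was not tested. The 8 slow fibre genes had a median deviation of 0.29 in LW70 and -0.01 in LW119, summed levels of 9234 to 10869 FPKM in S-H and 6186 to 9574 FPKM in S-L, and a median log2 fold change of 0.47, with 8 of 8 higher in S-H (7 with size factors), 0 that passed and 1 at an unadjusted p below 0.05. Of the 10 fast fibre genes listed, MYH1, MYH2 and MYH4 were not among those tested. The 7 tested summed to 11780 to 17844 FPKM in S-H and 13785 to 30115 FPKM in S-L. Their median log2 fold change was -0.55, with 7 of 7 lower in S-H and 2 at an unadjusted p below 0.05, and 1 passed, PVALB, a calcium-binding protein, lower in S-H (log2 fold change -2.92, SE 0.86), a call lost without LW82, LW88 or LW90. By the sums LW70 was above LW119 in slow fibre genes (10166 against 9234 FPKM) and in fast fibre genes (17844 against 11780 FPKM). It was the highest pig in neither list by its sum. The slow fibre genes TNNC1 and MYOZ2 and the fast fibre genes TNNI2 and PVALB were lower in LW70 than in LW119. TNNI2 had 53.5 FPKM in LW70 and 720.4 FPKM in LW119. The 8 adipocyte genes summed to 466.7 to 1329 FPKM in S-H and 276.3 to 404.5 FPKM in S-L, and 5 passed, all higher in S-H. Of these, the lipid droplet protein PLIN1 passed with any pig left out, CIDEC was lost without LW90, LEP without LW63, ADIPOQ without LW63 or LW90, and FABP4 without LW63, LW70, LW88 or LW90 and with size factors. LW63 had the most adipocyte RNA, at a median deviation of 1.33, against 0.55 in LW70 and 0.09 in LW119.

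Leukocyte and fibroblast genes ran against the members between LW70 and LW119. The 4 leukocyte genes summed to 14.8, 7.03 and 26.4 FPKM in S-H and 11, 10.9 and 9.72 FPKM in S-L, and the 5 fibroblast genes to 658.7, 320.9 and 692.7 FPKM in S-H and 384.3, 547.4 and 349.1 FPKM in S-L. By these sums LW119, the lowest pig for most members, was the highest in both lists, and LW70 was the lowest. The 5 endothelial genes summed to 90.3 to 113.4 FPKM in S-H and 69.2 to 97.5 FPKM in S-L. Of the leukocyte, fibroblast and endothelial lists 0 genes passed, with 0 at an unadjusted p below 0.05 in limma.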

How the data were processed

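RNA of the LD muscle was measured in 3 S-H and 3 S-L pigs, 1 library per pig. As the study's methods state, the authors made strand-specific libraries after removing ribosomal RNA, aligned the reads to Sus scrofa 11.1 with Hisat2 (version not given in the sources used here), kept uniquely mapped reads and quantified transcripts with StringTie, so a member with a near-identical copy elsewhere can be undercounted. The deposited values are FPKM for 83119 transcripts. Of these, the 21104 annotated transcripts without a symbol are on a TPM scale, found from the values, and were multiplied by 1 factor per pig (0.6385 to 0.8467). All rows of the members carry a symbol. Of all columns of pigs in the table, 0 were left unused.

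FPKM were summed by gene. Protein-coding genes with a symbol (RefSeq gene table, Sscrofa11.1, matched by symbol) and all members, 25 of which are not matched there as coding, were tested where their mean reached 0.1 FPKM. The test was limma 3.58.1 with a variance trend (R 4.3.3) on log2(FPKM + 0.1), two-sided, with the study's thresholds. A fold change on this scale understates that of weak genes. The study's own test needs read counts. Genes of the other lists were tested in a fit on all annotated genes with a mean of at least 0.1 FPKM. Their results with TPM, with size factors or with a pig left out came from fits on the protein-coding genes with a symbol and the members. A call lost there thus also reflects another set of genes. The isoform shares were compared by exact permutation tests (Python 3.11.15, scipy 1.17.1). COX8H was not found, so its family was left out. The fit was tested on simulated data.

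Genes named with values were the 3 most abundant members of each complex, those of largest positive or negative log2 fold change, isoform pairs and the catalytic or regulatory members, and others only where their values singled them out. The members and lists were chosen with earlier results of these data known. Apart from the listed genes and IRF8, symbols of the deposited table outside the rule served only as background. CircRNAs were not analysed here. Alternatives were pseudocounts of 1 and 0.01, TPM, size factors from median ratios, a minimum of 1 FPKM or none, annotated transcripts only and the leading transcript. Others were no variance trend, adjusted p below 0.05, all annotated genes with a mean of at least 0.1 FPKM and each pig left out. How often LW70 was highest and LW119 lowest under other levels was added after seeing the data.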

Additional observations from a re-analysis of the deposited data

How the results depend on the processing

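The count of members that passed was 0 in each alternative with all 6 pigs, and between 0 and 1 with a pig left out (SDHC without LW82, ATP5MC3 without LW119). At an unadjusted p below 0.05 in limma the member count, 1, was less stable. It was 15 without LW119 (951 of 11029 tested genes), 5 with TPM (1295 of 11224) and 0 with size factors (742 of 11018). The count over all tested genes, 149, was 70 with a pseudocount of 1, 227 with TPM, 0 at an adjusted p below 0.05 in limma (896 at an unadjusted p below 0.05), 120 with size factors (73 of them higher in S-H, against 128 of 149), and between 74 (without LW90) and 228 (without LW82) with a pig left out. With a pig left out, the median log2 fold change of complex IV ranged from 0.05 (without LW70) to 0.59 (without LW119), and it was 0.62 with TPM. The share difference of COX6A2 (S-H minus S-L, percentage points) was -0.795, and 8.84 with the leading transcript, and that of NDUFA4L2 was -0.0523, and 1.8 with annotated transcripts only. LW119 was lowest for 8 members with TPM. Of 407 log2 fold changes of the 34 named members under the alternatives, 32 had another sign than reported, 8 of them with size factors and 15 without LW70, and 2 passed. The causes of these changes were not tested. No paired analysis was possible because the labels give no replicate numbers and no animal is in both groups. Depth limits weak members such as COX6B2 in a way FPKM cannot show.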
